A study of Mus musculus with 13 samples.

Results

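The matrix metalloproteinases (MMP) and the ADAMTS proteases are secreted or membrane-bound zinc enzymes that cut the extracellular matrix, and the ADAMTS-like (ADAMTSL) proteins are their relatives without a protease domain. The members were all rows of the gene table whose symbol begins with Mmp and a digit or with Adamts, a rule that used no measured value. It took 44 of 18748 genes, of which 20 were MMP, 19 ADAMTS and 5 ADAMTSL genes. Bulk RNA sequencing had been done on cartilage of the mandibular condyle, the lower jaw's part of the temporomandibular joint, from young mice of 2 months (7 libraries) and aged mice of 18 months (6 libraries). The mice were compared by age alone; the labels give no treatment, allele, strain or sex. They number the libraries without saying that each is a single mouse, so p-values measure the spread between libraries. Because the RNA came from whole tissue, fewer cells of a type and less RNA per cell cannot be told apart.

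Most MMPs are made as inactive proenzymes that other proteases, including other MMPs, activate, and the tissue inhibitors of metalloproteinases (TIMPs) block the active forms. In cartilage and bone, collagenases cut fibrillar collagen, gelatinases cut denatured collagen, and several ADAMTS enzymes (the aggrecanases) cut the large proteoglycans aggrecan and versican. Other ADAMTS enzymes remove the amino-terminal propeptides of newly made procollagens, and the ADAMTSL proteins bind microfibrils. Transcript levels do not measure enzyme activity.

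Several MMP genes lie side by side on chromosome 9, and this cluster held members that fell, members that were not called and members that were barely detected. The RefSeq order (build GRCm38.p6, used for neighbours and sequence, while the files use GRCm39) was Mmp13, Mmp12, Mmp1b, Mmp3, Mmp1a, Mmp10, Mmp8, Mmp27, Mmp20 and Mmp7. Of these 10 genes, 7 had a row in the table, and Mmp1a, Mmp1b and Mmp7 were not analysed here. The promoters of 5 of the neighbours are shown because their transcripts differed widely in level, and some fell while others were not called or not tested. Each runs 5′ to 3′ on the plus strand from 120 bases before to 10 bases after the RefSeq start, at chr9:7272394-7272523 (Mmp13), chr9:7347254-7347383 (Mmp12), chr9:7445702-7445831 (Mmp3), chr9:7502222-7502351 (Mmp10) and chr9:7558309-7558438 (Mmp8). Capitals mark AP-1 letters (TGACTCA or TGAGTCA), RUNX letters (TGTGGT or ACCACA) and TATA letters (TATAAA or TTTATA), the motifs searched on both strands.
Mmp13: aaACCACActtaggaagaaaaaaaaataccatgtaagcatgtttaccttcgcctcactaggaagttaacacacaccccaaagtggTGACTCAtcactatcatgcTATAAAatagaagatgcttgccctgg
Mmp12: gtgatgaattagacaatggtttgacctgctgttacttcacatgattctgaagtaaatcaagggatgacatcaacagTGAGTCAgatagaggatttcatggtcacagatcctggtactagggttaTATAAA
Mmp3: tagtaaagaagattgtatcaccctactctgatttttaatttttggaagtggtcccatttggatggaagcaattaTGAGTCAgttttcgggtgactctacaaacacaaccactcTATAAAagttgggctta
Mmp10: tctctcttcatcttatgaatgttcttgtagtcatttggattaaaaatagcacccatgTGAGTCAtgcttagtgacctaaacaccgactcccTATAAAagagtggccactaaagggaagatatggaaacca
Mmp8: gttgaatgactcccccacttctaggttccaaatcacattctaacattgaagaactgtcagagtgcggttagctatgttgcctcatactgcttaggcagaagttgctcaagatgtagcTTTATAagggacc
RefSeq gives 2 starts for Mmp12; the stretch printed was chosen because it holds AP-1 letters, and the window of the other start, chr9:7344147-7344446, holds no AP-1 and no TATA letters. The AP-1 letters stood in 4 of these 5 stretches, beginning 35 bases before the start in Mmp13, 44 in Mmp12, 46 in Mmp3 and 63 in Mmp10. In the full RefSeq windows of 300 bases (250 before and 50 after the start), 29 of the 44 members were found, and Mmp13, Mmp12, Mmp3 and Mmp10 were the 4 that held AP-1 letters. The other members, among them Mmp9, Mmp2, Mmp16 and Adamts4, had no window and were not searched. The windows of the neighbours Mmp27 and Mmp20, which are not printed, held none. Of all 32851 windows, 5.2% held AP-1 letters. RUNX letters stood in 4 of the 29 members (Mmp13, Mmp14, Mmp23 and Mmp27) and in 16.8% of all windows, and TATA letters in 9 of the 29 and in 13.6% of all windows. The motifs did not overlap each other in the printed stretches. A match is a description of letters and not a measured binding site. The 4 genes with AP-1 letters differed in their transcripts: Mmp13 and Mmp12 fell with age, Mmp3 was not called, and Mmp10 had 8 counts over all 13 libraries.

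Library totals ran from 17531694 to 18203443 expected counts in young and from 16356839 to 17876681 in aged libraries. Libraries were compared by edgeR's quasi-likelihood test on the counts, fitted over 14067 genes that passed a filter on low counts, and "rose", "fell" and "called" refer to an adjusted p under 0.05 in that test (Benjamini-Hochberg). Library levels are CPM (counts scaled to a common library size) after TMM scaling, and fold changes are log2 values, aged minus young, ± SE. Of all genes tested, 46.2% were called, and their median log2 fold change was 0.014. Markers of several cell types moved with age. Summed osteoclast markers ranged from 4584 to 5708 CPM in young and from 2176 to 3523 CPM in aged libraries (7 of 10 fell, 1 rose). Summed chondrocyte markers ranged from 27667 to 43052 and from 7652 to 18260 CPM (10 of 12 fell), hypertrophic chondrocyte markers from 5142 to 7981 and from 2412 to 6262 CPM (3 of 6 fell), and osteoblast markers from 13209.6 to 17627 and from 8438 to 14340 CPM (8 of 10 fell, 1 rose). Muscle markers ranged from 594 to 5477 and from 4540 to 17245 CPM (10 of 12 rose), neutrophil markers from 590.4 to 1899 and from 1229.9 to 5815 CPM (10 of 11 rose), and erythroid markers from 32.2 to 227 and from 475 to 1797 CPM (10 of 10 rose). No marker of these lists was at 0 in either group, so cartilage, bone, marrow and muscle transcripts were all present in the tissue; except where a value is given below, their part in the results was not tested.

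MMP and ADAMTS transcripts were lower in the aged condyle for most members that were called. Of the 44 members, 38 passed the filter and 27 of these were called (71.1%, beside 46.2% of all tested genes). There were 21 that fell (beside 21.6% of all tested genes falling) and 6 that rose (beside 24.7% rising), and none of the 27 changed sign under the other filters, scalings and tools tried. The median log2 fold change of the tested members was -0.51. By family, 9 of 15 tested MMP genes fell and 1 rose (median -0.57), 11 of 18 ADAMTS genes fell and 3 rose (median -0.52), and 1 of 5 ADAMTSL genes fell and 2 rose (median 0.38). A change of at least 2-fold was called for 10 members, 9 lower and 1 higher, beside 2.89% of all tested genes lower and 8.67% higher by that rule. All aged libraries lay below all young libraries for 14 members and above them for 2, beside 10.9% and 8.28% of all tested genes. With a score of erythroid and neutrophil markers as a covariate, 11 of 38 members were called (28.9%), 8 lower and 3 higher, beside 14.5% of all tested genes in the same fit; this score lay between -1.37 and -0.25 in young and between 0.091 and 1.41 in aged libraries, so it did not overlap between the ages.

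**Figure D1:**
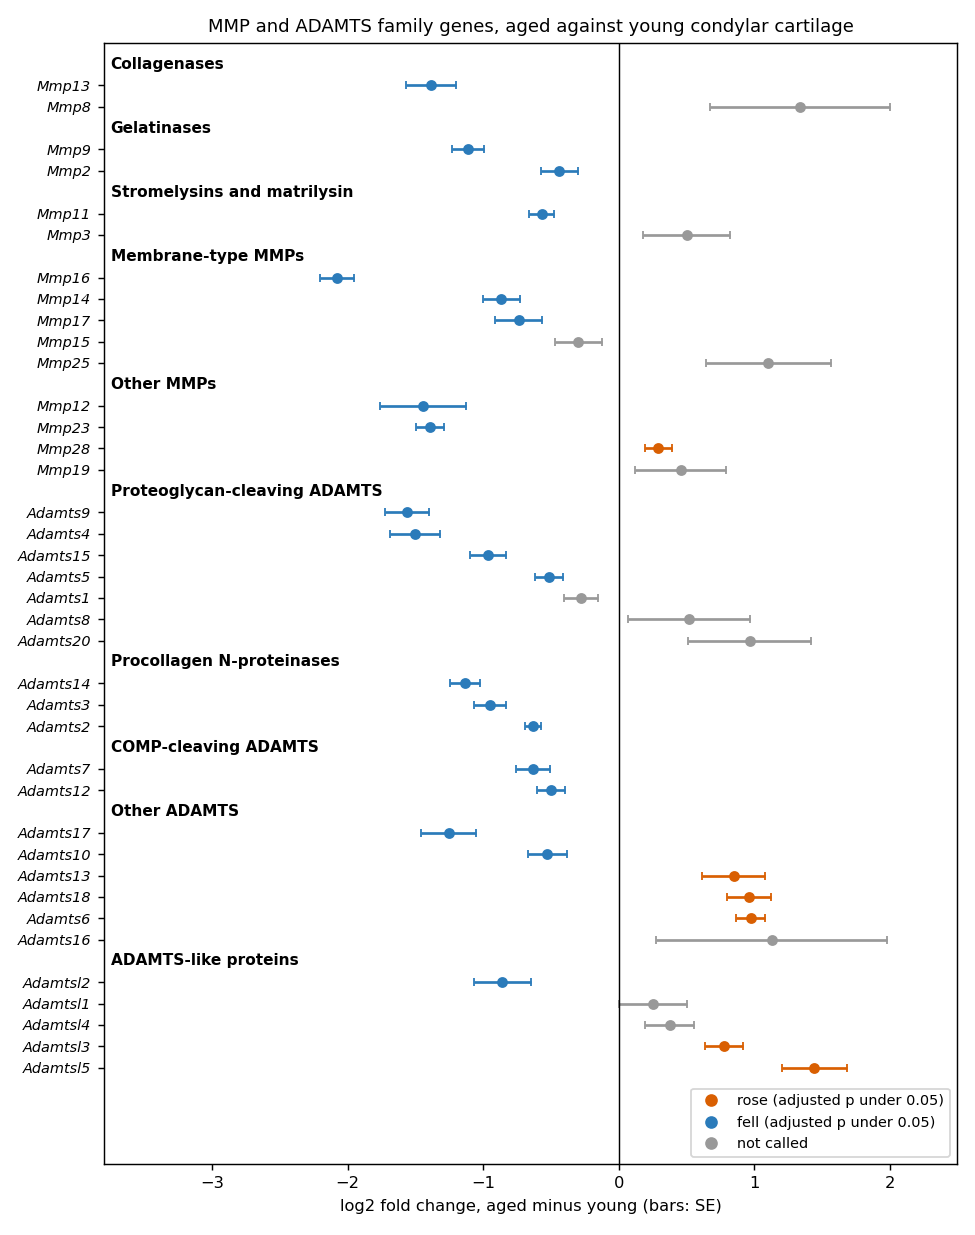
Log2 fold change (aged minus young, points) with its SE (bars) for the 38 tested members, grouped by role, with 21 that fell in blue, 6 that rose in orange and 11 that were not called in grey. Mmp16 lies farthest left at -2.08, and the 3 procollagen N-proteinases all lie left of 0.

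By level per transcript length (FPKM), 4 genes dominated the family at both ages. Mmp9, Mmp13, Mmp2 and Mmp14 together held 89.6 ± 0.707% (SD, n = 7) of the members' summed FPKM in young and 84.1 ± 2.15% (SD, n = 6) in aged libraries. In young libraries the mean FPKM was 907 for Mmp9, 798 for Mmp13, 685 for Mmp2 and 396 for Mmp14. In aged libraries Mmp2 had the highest mean at 585 FPKM, followed by Mmp9 at 487, Mmp13 at 353 and Mmp14 at 252. Mmp9 was the highest of the 4 in 6 of 7 young libraries, whereas Mmp2 was the highest in 4 of 6 aged libraries and Mmp9 in the other 2. Mmp14 was the lowest of the 4 in every library of both ages. Neighbours in this order were close: Mmp2 and Mmp9 exchanged places among the aged libraries, and Mmp13 ranked first in 1 young library. All members together took 0.913 ± 0.0517% (SD, n = 7) of the counts in young and 0.610 ± 0.0984% (SD, n = 6) in aged libraries, with no overlap between the ages (lowest young 0.805%, highest aged 0.768%). Below the leading 4, 11 members had a mean of 10 to 100 FPKM in young and 7 in aged libraries, 17 and 21 had 1 to 10 FPKM, and 12 had less than 1 FPKM at each age.

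Of the collagenases, which make the first cut in fibrillar collagen, Mmp13 fell and Mmp8 was not called. Mmp13 (gene ID 17386), made by hypertrophic chondrocytes and osteoblasts, ranged from 1385 to 2418 CPM in young libraries (median 2065) and from 514.6 to 1233 CPM in aged libraries (median 708.1). The groups did not overlap, and aged replicate 6 stood highest of the aged libraries. Mmp13 fell by 1.38 ± 0.18 on the log2 scale (edgeR adjusted p = 4.05e-05), a 2.61-fold lower level. Its level was 8.10% to 15.6% of the summed osteoblast markers in young (median 13.3%) and 5.59% to 14.0% in aged libraries (median 7.27%). Of the hypertrophic markers it was 18.4% to 42.4% in young (median 31.9%) and 12.97% to 44.2% in aged libraries (median 22.0%). Both ratios overlapped between the ages, with lower medians in aged libraries. The overlap of the osteoblast ratio rested on aged replicate 6 (14.0%) and young replicate 2 (8.10%), and the ratios were not tested. Mmp8 (gene ID 17394), the collagenase of neutrophil granules, ranged from 13.1 to 38.9 CPM in young (median 32.2) and from 1.24 to 141.9 CPM in aged libraries (median 66.6). Aged libraries lay on both sides of the young range: 4 were above every young library, while replicates 2 (12.6 CPM) and 3 (1.24 CPM) were below every one. The log2 fold change of Mmp8 was 1.34 ± 0.67 (edgeR adjusted p = 0.117), and it was called without aged replicate 3 (log2 fold change 1.59, adjusted p = 0.0156). As a share of the summed neutrophil markers, Mmp8 was 1.84% to 2.79% in young libraries and 2.32% to 2.46% in 4 aged libraries, but 0.354% in aged replicate 2 and 0.101% in aged replicate 3.

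Both gelatinases, which degrade denatured collagen and basement membrane collagen, fell, and Mmp9 fell further than Mmp2 in the point estimates. Mmp9 (gene ID 17395), abundant in osteoclasts and at the cartilage-bone front, ranged from 2312 to 3047 CPM in young (median 2909) and from 930.5 to 1665 CPM in aged libraries (median 1277). The groups were widely apart, and the lowest young library exceeded the highest aged library. Mmp9 fell by 1.11 ± 0.12 on the log2 scale (edgeR adjusted p = 8.29e-06). Beside it, the summed osteoclast markers, which do not include Mmp9, also did not overlap between the ages. Mmp9 was 50.4% to 60.2% of that sum in young and 42.8% to 48.6% in aged libraries, ranges that were themselves apart. Acp5 and Ctsk were the largest parts of the sum. Ocstamp (-1.44), Dcstamp (-1.15) and Acp5 (-1.15) fell further than Mmp9 in the point estimates. Oscar (-1.06), Ctsk (-0.90), Atp6v0d2 (-0.77) and Tnfrsf11a (-0.63) fell less, Nfatc1 rose (0.31), and Calcr and Itgb3 were not called. These differences from Mmp9 were not tested. Mmp2 (gene ID 17390), made mainly by fibroblast-like and other mesenchymal cells, ranged from 1654 to 2269 CPM in young (median 2048) and from 1143 to 2059 CPM in aged libraries (median 1406). Its groups overlapped, since aged replicates 3 and 6 lay within the young range. Mmp2 fell by 0.44 ± 0.14 on the log2 scale (edgeR adjusted p = 0.0171), a call lost when counts were scaled by library size alone (log2 fold change -0.21, adjusted p = 0.192) or when log2(FPKM + 1) was tested with limma (-0.25, adjusted p = 0.124).

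Among the stromelysins, which cut proteoglycans and other non-fibrillar matrix and activate other MMPs, no common direction was called. Mmp3 (gene ID 17392) ranged from 10.09 to 30.8 CPM in young (median 23.4) and from 14.2 to 49.7 CPM in aged libraries (median 26.8), ranges that overlapped broadly. On the log2 scale it differed by 0.50 ± 0.32 (edgeR adjusted p = 0.223), and by 0.29 without aged replicate 5, which held the highest value. Mmp11, a stromelysin in name that is activated inside the cell by furin, fell by 0.57 ± 0.09 on the log2 scale (adjusted p = 0.000262). Mmp11 ran from 11.6 to 16.8 CPM in young and from 8.15 to 10.3 CPM in aged libraries, without overlap.

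The membrane-type MMPs, which are anchored at the cell surface, included the member with the largest called change. Mmp14 (gene ID 17387), which activates the Mmp2 proenzyme and itself cuts collagen, ranged from 1317 to 1624 CPM in young (median 1474) and from 594.9 to 1156 CPM in aged libraries (median 732.7). No aged library reached the young range, and aged replicate 6 was again the highest of its group. Mmp14 fell by 0.87 ± 0.14 on the log2 scale (edgeR adjusted p = 0.00018). Mmp16 (gene ID 17389), a second transmembrane activator of Mmp2, ranged from 35.95 to 52.4 CPM in young (median 43.0) and from 7.87 to 13.1 CPM in aged libraries (median 9.90). Every aged library was far below every young one. Mmp16 fell by 2.08 ± 0.13 on the log2 scale (edgeR adjusted p = 7.67e-08), a 4.22-fold lower level. Mmp17, held by a lipid anchor, fell by 0.74 on the log2 scale (adjusted p = 0.00293), and the transmembrane Mmp15 had a log2 fold change of -0.30 (adjusted p = 0.179). Mmp25, a lipid-anchored enzyme of leukocytes, ranged from 4.33 to 10.3 CPM in young (median 7.27) and from 1.301 to 27.2 CPM in aged libraries (median 14.8). As for Mmp8, its lowest value was in aged replicate 3; the log2 fold change was 1.10 ± 0.46 (edgeR adjusted p = 0.0649), and 1.34 (adjusted p = 0.00213) without that library.

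**Figure D2:**
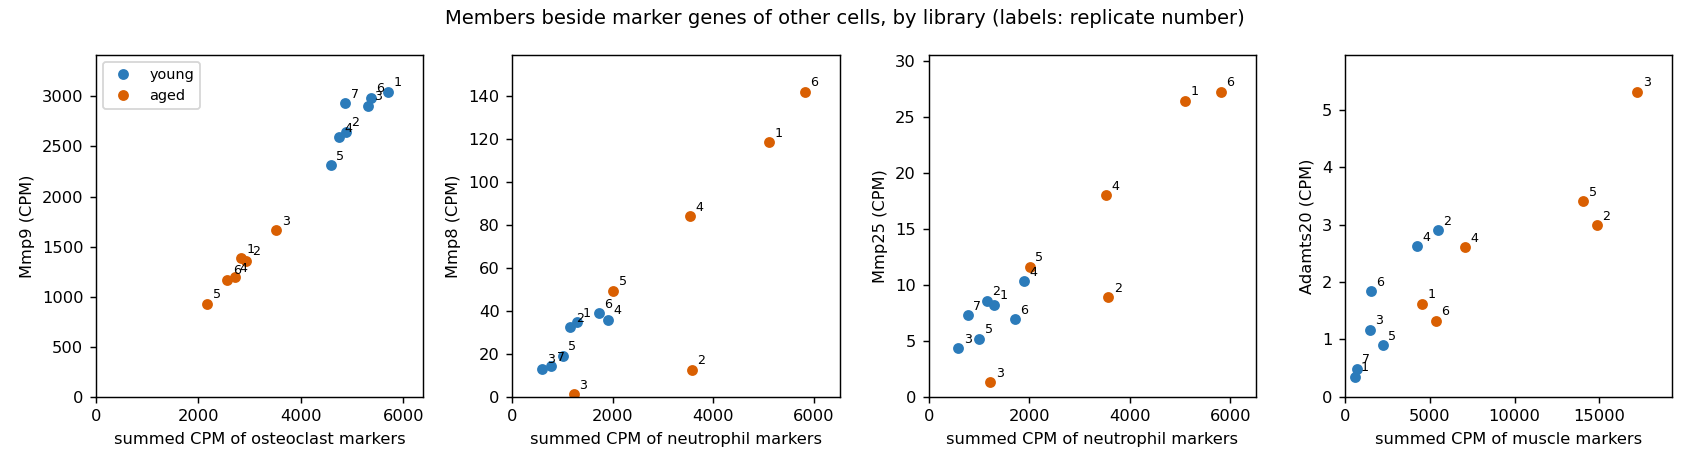
Level of Mmp9, Mmp8, Mmp25 and Adamts20 (CPM, vertical axes) against the summed CPM of osteoclast, neutrophil, neutrophil and muscle markers (horizontal axes); each point is 1 library, labelled by its replicate number, young in blue and aged in orange. Mmp9 lies in separate ranges at the ages together with the osteoclast sum, while Mmp8 in aged replicates 2 and 3 (12.6 and 1.24 CPM) lies far below the other aged libraries.

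Of the other MMPs, Mmp23 and Mmp12 fell and Mmp28 rose. Mmp23 (gene ID 26561), an unusual MMP without the common haemopexin domain, ranged from 43.4 to 55.1 CPM in young (median 50.5) and from 15.4 to 24.4 CPM in aged libraries (median 18.0), with a wide gap between the groups. Mmp23 fell by 1.39 ± 0.10 on the log2 scale (edgeR adjusted p = 3.88e-07). Mmp12 (gene ID 17381), the elastase of macrophages and also of osteoclasts, rested on only 4 to 32 counts a library: it ranged from 0.822 to 1.87 CPM in young (median 1.52) and from 0.226 to 1.02 CPM in aged libraries (median 0.467), and the groups overlapped. Mmp12 fell by 1.44 ± 0.32 on the log2 scale (edgeR adjusted p = 0.00211). Summed macrophage markers ranged from 565 to 724 CPM in young and from 413 to 652 CPM in aged libraries, with 4 of 9 tested markers higher and 2 lower. Mmp28, epilysin, known from skin keratinocytes, rose by 0.29 ± 0.10 (adjusted p = 0.0293), a call that was lost when any of young replicates 1, 4, 6 and 7 or aged replicates 3, 5 and 6 was left out (0.23 to 0.29, adjusted p 0.0510 to 0.0793). Mmp19 had a log2 fold change of 0.46 (adjusted p = 0.284) that rested on aged replicate 6 (46.6 CPM, beside 9.48 to 17.4 CPM in the other aged libraries); without it the value was -0.072.

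Among the 7 proteoglycan-cleaving ADAMTS genes, 4 fell and none rose. Adamts4 (gene ID 240913), an aggrecanase, ranged from 58.5 to 79.0 CPM in young (median 63.1) and from 17.25 to 41.5 CPM in aged libraries (median 19.75). The groups did not overlap, although aged replicate 6 stood apart from the other aged libraries, which reached at most 25.7 CPM. Adamts4 fell by 1.503 ± 0.19 on the log2 scale (edgeR adjusted p = 2.7e-05). Adamts9 (gene ID 101401), a widely expressed versican- and aggrecan-cleaving enzyme, ranged from 103.8 to 160.6 CPM in young (median 127.7) and from 31.0 to 62.2 CPM in aged libraries (median 40.4). Here aged replicate 6 was the lowest of the aged libraries, and no library of one age reached the other's range. Adamts9 fell by 1.56 ± 0.16 on the log2 scale (edgeR adjusted p = 6.22e-06), a 2.95-fold lower level. Adamts15, which also cuts versican, fell by 0.97 ± 0.13 on the log2 scale (adjusted p = 5.52e-05), with 15.5 to 23.9 CPM in young and 7.76 to 11.7 CPM in aged libraries. Adamts5, the main aggrecanase of mouse cartilage in disease models, fell less, by 0.52 ± 0.10 on the log2 scale (adjusted p = 0.00114), and its groups overlapped (50.8 to 70.9 and 35.8 to 57.3 CPM). Adamts1 had a log2 fold change of -0.28 (adjusted p = 0.0833), and -0.42 (adjusted p = 0.00181) without aged replicate 4, its highest aged library. Adamts8 (log2 fold change 0.52, adjusted p = 0.37) and Adamts20 (0.97 ± 0.46, adjusted p = 0.0972) were not called. In young libraries both were highest in replicates 2 and 4, which also had the highest summed muscle markers of the young group. In aged libraries both were highest in replicate 3, which had the highest muscle sum (17245 CPM). Adamts8 did not follow that sum in every aged library. It was 8.33 CPM in aged replicate 6 (muscle sum 5361 CPM) and 6.43 CPM in aged replicate 2 (muscle sum 14855 CPM). With a muscle marker score as a covariate the values of Adamts8 and Adamts20 were -0.34 and -0.66, and a muscle source was not tested. Adamts20 was called without young replicate 2 (1.22, adjusted p = 0.0459).

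All 3 procollagen N-proteinases, which trim the amino-terminal propeptides of fibrillar procollagens, fell without overlap between the ages. Adamts2 (gene ID 216725), the main N-proteinase of procollagen I, ranged from 416.4 to 478.8 CPM in young (median 454.3) and from 260.1 to 314.1 CPM in aged libraries (median 293.5). Both groups were tight and clearly apart. Adamts2 fell by 0.63 ± 0.06 on the log2 scale (edgeR adjusted p = 2.36e-06), a 1.55-fold lower level. Adamts14 (gene ID 237360), a close relative of Adamts2, ranged from 47.55 to 68.0 CPM in young (median 51.8) and from 19.1 to 29.25 CPM in aged libraries (median 25.2). Young replicate 3 was the highest of all libraries, and the lowest young library was well above every aged one. Adamts14 fell by 1.14 ± 0.11 on the log2 scale (edgeR adjusted p = 3.15e-06). Adamts3, which processes procollagen II and the lymphatic growth factor VEGF-C, fell by 0.95 ± 0.12 on the log2 scale (adjusted p = 2.33e-05).

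Adamts7 and Adamts12, which both cut cartilage oligomeric matrix protein (COMP), both fell. Adamts12 (gene ID 239337) ranged from 31.9 to 41.6 CPM in young (median 40.0) and from 21.2 to 31.9 CPM in aged libraries (median 26.4), so the ranges just touched. Adamts12 fell by 0.50 ± 0.11 on the log2 scale (edgeR adjusted p = 0.00166). Adamts7 fell by 0.63 ± 0.13 on the log2 scale (adjusted p = 0.00103), with 19.6 to 27.5 CPM in young and 10.5 to 19.3 CPM in aged libraries.

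The other ADAMTS genes held 3 of the 6 members that rose. Adamts6, a fibrillin-microfibril-associated enzyme, had 20.8 to 28.8 CPM in young (median 23.4) and 40.2 to 60.4 CPM in aged libraries (median 44.1), without overlap, and rose by 0.97 ± 0.11 (edgeR adjusted p = 1.07e-05). Adamts10 (gene ID 224697), the closest relative of Adamts6 and the gene mutated in recessive Weill-Marchesani syndrome, moved the other way: it ranged from 149.5 to 218.7 CPM in young (median 194.3) and from 91.2 to 177.8 CPM in aged libraries (median 125.6). Its ranges overlapped, and Adamts10 fell by 0.53 ± 0.14 on the log2 scale (edgeR adjusted p = 0.00828), a call lost when counts were scaled by library size alone (log2 fold change -0.30, adjusted p = 0.114) and on the FPKM scale with limma (-0.34, adjusted p = 0.0719). The difference between the changes of Adamts6 and Adamts10 was not tested. Adamts18 rose by 0.96 ± 0.16 (adjusted p = 0.000338), with 82.7 to 137.2 CPM in young and 131.0 to 259.0 CPM in aged libraries. Adamts13, the von Willebrand factor protease, rose by 0.85 ± 0.23 (adjusted p = 0.00847) at a low level, 0.695 to 1.78 CPM in young and 1.58 to 3.62 CPM in aged libraries. Adamts17 (gene ID 233332), mutated in a Weill-Marchesani-like syndrome, ranged from 7.34 to 13.6 CPM in young (median 10.02) and from 2.20 to 5.67 CPM in aged libraries (median 4.66). Its groups were separate, and Adamts17 fell by 1.26 ± 0.20 on the log2 scale (edgeR adjusted p = 0.000199). Adamts16 had a log2 fold change of 1.13 (adjusted p = 0.299) that turned to -1.05 without aged replicate 6, which had 9.61 CPM beside 0.112 to 0.792 CPM in the other aged libraries.

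Of the 5 ADAMTSL genes, 2 rose and 1 fell. Adamtsl5 (gene ID 66548), a microfibril-binding protein, ranged from 5.68 to 13.4 CPM in young (median 8.36) and from 13.36 to 39.0 CPM in aged libraries (median 22.8). The ranges met at their ends, at young replicate 2 and aged replicate 4. Adamtsl5 rose by 1.44 ± 0.24 (edgeR adjusted p = 0.000301), a 2.72-fold higher level and the one called rise of at least 2-fold. This call was lost with a muscle marker score as a covariate. Adamtsl5 was highest in young replicate 2 and aged replicate 3, which had the highest muscle sums of their ages (5477 and 17245 CPM). Aged replicate 6 had 24.3 CPM (muscle sum 5361 CPM) and aged replicate 2 had 23.6 CPM (muscle sum 14855 CPM). A muscle source was not tested. Adamtsl3 rose by 0.78 ± 0.14 (adjusted p = 0.000442), from 4.29 to 7.81 CPM in young to 8.26 to 12.9 CPM in aged libraries, without overlap. Adamtsl2, mutated in geleophysic dysplasia, fell by 0.86 ± 0.21 on the log2 scale (adjusted p = 0.00431). Adamtsl4 (gene ID 229595), which binds fibrillin-1, had the highest FPKM of the ADAMTSL genes; it ranged from 28.4 to 56.3 CPM in young (median 35.4) and from 40.4 to 67.5 CPM in aged libraries (median 47.3). Its ranges overlapped, and its log2 fold change of 0.38 was not called (edgeR adjusted p = 0.105); without young replicate 5 it was 0.49 (adjusted p = 0.0284). Adamtsl1 was not called (0.25, adjusted p = 0.438), and its value was -0.055 without aged replicate 6.

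**Figure D3:**
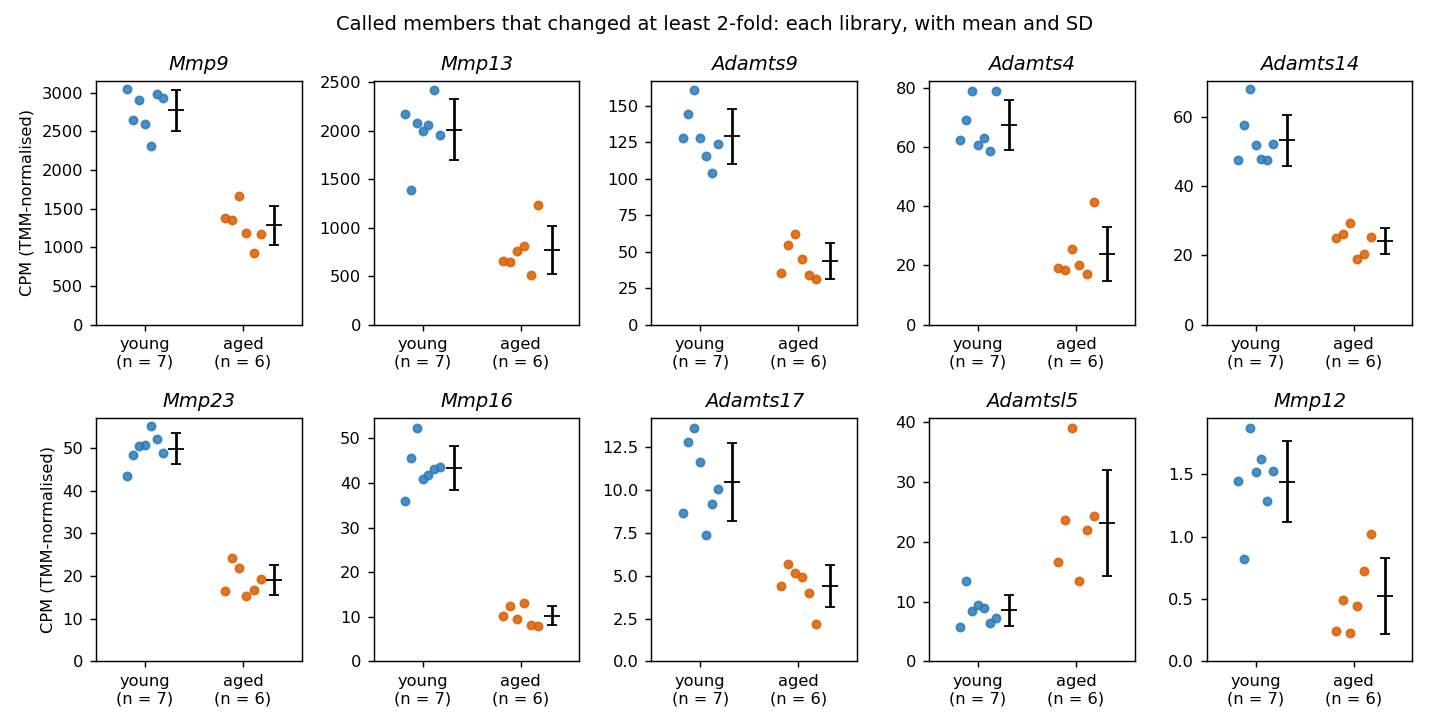
Level (TMM-normalised CPM, linear axes from 0) of the 10 members with a called change of at least 2-fold; each point is 1 library, young in blue (n = 7) and aged in orange (n = 6), with the mean and SD in black. Aged points lie below all young points except for Mmp12, where they overlap, and Adamtsl5, which was higher in aged libraries.

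For 14 of the 21 members that fell, every aged library lay below every young one, while several members that were not called had 1 or 2 aged libraries far from the rest. Over all 14067 tested genes, 3033 fell, and every aged library lay below every young one for 1530. Of the 11 members not called, Mmp8 and Mmp25 were low in aged replicate 3, and Mmp19, Adamts16 and Adamtsl1 were high in aged replicate 6. Aged replicate 6 also had the highest aged values of Mmp13, Mmp14, Mmp2 and Adamts4, and the lowest of Adamts9 and Mmp16. Without aged replicate 6, 26 members were called, 21 lower and 5 higher.

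**Figure D4:**
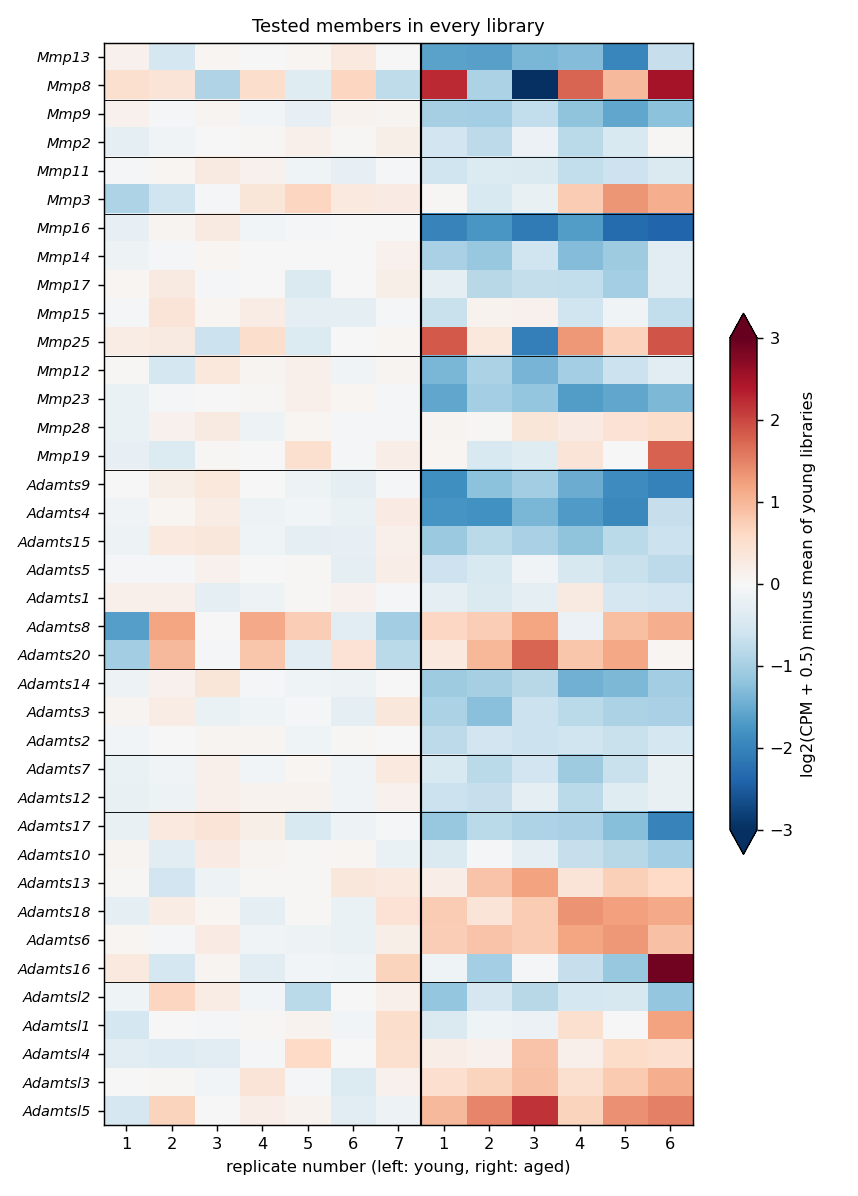
Difference of each library's log2(CPM + 0.5) from the mean of the young libraries (colour, blue lower and red higher) for the 38 tested members in rows, ordered by role, and the 13 libraries in columns by replicate number, young left of the line and aged right. Mmp16 and Adamts9 are blue in all 6 aged libraries, while Mmp8 is red in 4 aged libraries and blue in replicates 2 and 3.

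Members that were not expressed, or barely, were few. Mmp20, the enamelysin of developing teeth, had 2 counts over the 13 libraries and was not detected by the limit of 3 counts; it was at 0 in all aged libraries, which allows a level of up to 0.0268 CPM. Mmp21, an MMP of left-right patterning in the embryo, had 4 counts in all and was at 0 in every young library, which allows up to 0.0257 CPM. These limits cover counting error only. Mmp10 had 8 counts over all libraries, Adamts19 had 25 and Mmp27 had 33. Mmp24, a membrane-type MMP known from the nervous system, had 122 counts, of which 112 came from aged replicate 1. These 5 members with low counts and Mmp20 did not pass the filter and had no test.

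The genes that restrain, activate or regulate these enzymes were called about as often as genes in general: 36.4% to 50% of each list, beside 46.2%. Of 6 tested inhibitors, Timp3 (log2 fold change 1.23 ± 0.18, edgeR adjusted p = 0.000118), which is bound to the matrix and also inhibits ADAMTS enzymes, and Timp4 (2.19 ± 0.32, adjusted p = 0.000109) rose, and A2m, the plasma protease trap alpha-2-macroglobulin, fell (-3.22 ± 0.35, adjusted p = 1.02e-05). The list's median was 0.07 (beside 0.014 for all tested genes), and Timp1 (-0.39, adjusted p = 0.146), Timp2 (0.12, adjusted p = 0.415) and the membrane inhibitor Reck (0.01, adjusted p = 0.942) were not called. FPKM summed over the 4 TIMP genes was 647 ± 64.5 (SD, n = 7) in young libraries. In aged libraries it was 861 ± 126 (SD, n = 6). The summed FPKM of the ADAMTS genes was 204 ± 11.3 in young and 179 ± 4.91 in aged libraries. FPKM carries no TMM scaling, and with limma on log2(FPKM + 1) genes in general shifted upward with age (median 0.17). Within the TIMP sum, mean FPKM went from 394 to 497 for Timp2, which was not called, and from 79.4 to 215 for Timp3. It went from 174 to 146 for Timp1 and from 0.48 to 2.6 for Timp4. Neither sum was tested. Of 10 tested genes of proenzyme activation, 4 fell and none rose (median -0.12), with the furin-like convertase Pcsk6 changed the most (-1.10 ± 0.14, adjusted p = 2.33e-05). Of 11 tested metalloproteinases outside the family, 4 fell and none rose (median -0.12), among them Adam12 (-1.74 ± 0.11, adjusted p = 7.67e-08) and Bmp1, the procollagen C-proteinase (-1.26 ± 0.08, adjusted p = 6.44e-08). Of 22 tested receptor and transcription factor genes known to act on MMP or ADAMTS genes or enzymes, 3 rose and 5 fell (median 0.01). Of the AP-1 genes in that list, Junb rose (0.61 ± 0.08, adjusted p = 4.79e-05), Fosl2 fell (-0.37 ± 0.09, adjusted p = 0.0039), and Fos, Fosl1, Jun, Jund and Atf3 were not called. The skeletal factors Sp7 (-0.79 ± 0.08, adjusted p = 5.86e-06) and Runx2 (-0.40 ± 0.09, adjusted p = 0.00293) fell. The counts of inhibitors and regulators that rose were each higher (4 and 6) when counts were scaled by library size alone, a scaling that moved the median of all genes to 0.24.

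Most genes of the matrix proteins that these enzymes cut fell too. Of 14 tested substrate genes, 8 fell and 3 rose (median -1.43), beside 21.6% of all tested genes falling and 24.7% rising. The procollagen I gene Col1a1 fell by 1.92 ± 0.11 on the log2 scale (adjusted p = 4.66e-08), beside falls of 0.63 to 1.14 for its 3 N-proteinases. Versican (Vcan) fell by 1.43 ± 0.14 on the log2 scale (adjusted p = 3.15e-06). Of 6 ADAMTS members listed here as cutting versican, Adamts4, Adamts5, Adamts9 and Adamts15 fell and Adamts1 and Adamts20 were not called. Aggrecan (Acan) differed from this: its log2 fold change was -0.06 ± 0.18 (adjusted p = 0.821). Of 6 ADAMTS members listed here as cutting aggrecan, Adamts4, Adamts5, Adamts9 and Adamts15 fell and Adamts1 and Adamts8 were not called. The lists for versican and aggrecan held no MMP genes and were not complete. The COMP gene rose (1.02 ± 0.17, adjusted p = 0.000232) while Adamts7 and Adamts12 fell. Von Willebrand factor (Vwf) and its protease Adamts13 both rose (2.16 ± 0.18, adjusted p = 8.95e-07, for Vwf). Differences between the change of a substrate and that of its proteases were not tested.

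**Figure D5:**
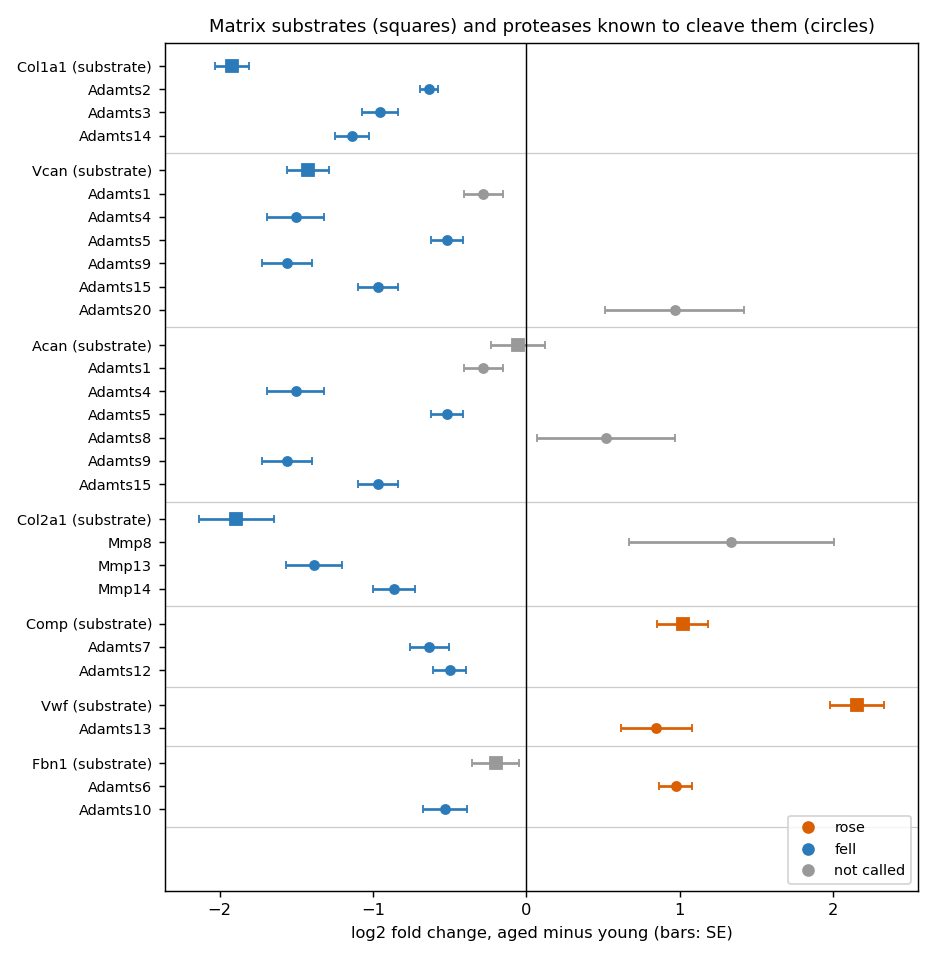
Log2 fold change (aged minus young) with its SE for 7 matrix substrates (squares) and members chosen as proteases of each (circles, not a complete list), in blue where they fell, in orange where they rose and in grey where they were not called. Vcan (-1.43) lies near Adamts4 (-1.503) and Adamts9 (-1.56), Acan (-0.06) lies right of both, and Comp (1.02) lies on the other side of 0 from Adamts7 and Adamts12.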

How the data were processed

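Polyadenylated RNA of the condylar cartilage was sequenced as strand-specific read pairs on a DNBSEQ instrument, per the labels' protocols. The submitters' processing notes name RSEM 1.3.1, DESeq2 1.4.5, HISAT2 2.1.0 and Bowtie2 2.3.4.3 beside build GRCm39, and no annotation. The authors deposited, per the file headers, read counts, FPKM and TPM of 18748 genes in 1 table. The deposited counts are expected counts, since 5.30% of the values were not whole, and were rounded. FPKM and TPM had been normalised by the authors for length and depth; TPM was not used.

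Counts were tested in R 4.3.3 with edgeR 4.0.16 (filterByExpr with a minimum count of 10 and minimum total of 15, TMM, glmQLFit with robust estimation, glmQLFTest, two-sided) over 7 young and 6 aged libraries, with Benjamini-Hochberg adjustment over all 14067 tested genes and a threshold of 0.05. SEs came from the fold change and its F statistic. No 2 libraries agreed within counting noise. Alternatives were other filters and scalings, DESeq2 1.42.0, limma 3.58.1 (voom, and log2(FPKM + 1) or log2(FPKM + 0.1)), the omission of each library, a block for replicate numbers, and covariates made from marker scores. The fit was tested on simulated data. Full values are given for called members changed at least 2-fold and for the tested member of each role with the highest mean FPKM; Mmp2, Mmp8, Mmp25 and Adamts6 were added after their values were seen. Motif letters were searched in RefSeq promoter windows (GRCm38.p6), which covered 29 members. Members, roles, marker lists and pathway lists were chosen with earlier results of these data known.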

Additional observations from a re-analysis of the deposited data

Results flagged for a closer look

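In 6 of 85 groups of libraries (7.06%), 1 library stood far from the rest of its group by Dixon's criterion. The criterion marks about 1 in 20 groups by chance where values are independent and normally distributed. These groups shared the same libraries and some lay near 0, so their share cannot be compared with that rate. All 6 were aged. Aged replicate 6 stood apart for Adamts16 (9.61 CPM, beside 0.112 to 0.792 CPM in the other aged libraries), Mmp19 (46.6 CPM, beside 9.48 to 17.4), Adamts4 (41.5 CPM, beside 17.25 to 25.7) and Mmp10 (0.153 CPM, from 3 counts, beside 0). Aged replicate 4 stood apart for Adamts1 (61.4 CPM, beside 34.0 to 42.1). Aged replicate 1 stood apart for Mmp24 (5.52 CPM, beside 0 to 0.0566), which no other library expressed above 2 counts.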

How the results depend on the processing

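Of the 27 called members, 9 were called under all 25 alternatives (Adamts14, Adamts2, Adamts4, Adamts6, Adamts9, Mmp13, Mmp16, Mmp23 and Mmp9). Other filters, scalings and tools called 27 to 29 members; Mmp2 and Adamts10 lost their call under at least 1 of them, and no called member changed sign. Library size alone moved the median of all genes to 0.24 and the split of all calls to 7034 higher and 1253 lower (main 3471 and 3033), with 9 members higher and 19 lower. Leaving out each library in turn gave 26 to 28 called members, 5 to 7 higher and 21 to 22 lower. A muscle score as a covariate called 21 members, 19 of them among the 27, and 25.9% of all tested genes. An erythroid and neutrophil score called 11, with 3 higher and 8 lower, and 14.5% of all tested genes; the score does not overlap between the ages, and the cause was not tested. Values that changed sign were, with that score, Adamts16 (-1.56), Adamtsl1 (-0.12), Adamtsl2 (0.070), Mmp15 (0.52), Mmp19 (-0.90), Mmp25 (-1.80), Mmp3 (-0.13) and Mmp8 (-3.41); with the muscle score, Adamts20 (-0.66) and Adamts8 (-0.34); with limma-voom, Adamts16 (-0.44); and without aged replicate 6, Adamts16 (-1.05, up to 1.37 without another library), Adamtsl1 (-0.055, up to 0.36) and Mmp19 (-0.072, up to 0.59). Of these, Adamtsl2 alone had been called. Adamts8 moved to 0.33 without young replicate 1. A replicate block, with young replicate 7 left as a block of its own, called 29 members, 8 higher and 21 lower, adding Adamtsl4 (adjusted p = 0.0238) and Mmp3 (adjusted p = 0.0263); same-numbered libraries correlated above 0.1 in 5 of 6 pairs but not in every pair (-0.12 to 0.26, 2 of 6 best with their own number), so the numbers were not taken as pairs. For the 6 members that did not pass the filter, low depth and absent expression were not told apart.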

Other observations

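Neutrophil genes did not all follow Mmp8 in the aged libraries. In aged replicate 2, Mmp8 (12.6 CPM) was below every young library, and Ly6g (5.01 CPM) and Mmp25 (8.88 CPM) lay within the young range. Mpo (524.5 CPM), Elane (181.7 CPM) and Prtn3 (119 CPM) were the highest of all libraries there, and the remaining neutrophil markers also lay above the young range. In aged replicate 3, Mmp8 (1.24 CPM) and Mmp25 (1.301 CPM) were below every young library, as was the neutrophil surface gene Ly6g (0.736 CPM, beside 2.40 to 7.16 CPM in young libraries). Of the 11 neutrophil markers in that library, Ly6g was the 1 below the young range, 7 lay within it (Camp, Cebpe, Lcn2, Ltf, Ngp, S100a8 and S100a9), and 3 granule protease or peroxidase genes lay above it: Mpo (223.5 CPM, young 43.7 to 154.8), Elane (57.1 CPM, young at most 52.7) and Prtn3 (37.9 CPM, young at most 31.8).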
